A study of Mus musculus with 6 samples.

Results

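The genes described are 31 genes of the lysosome, chosen by function as cathepsins, other lysosomal enzymes and lysosomal membrane proteins, and found by gene name among the 53715 genes of the count table. All 31 passed the filter on low counts, as did 16721 genes in all. By role they comprise 9 cysteine cathepsins, 4 other proteases, 8 glycosidases, 5 lipid-handling enzymes and soluble cofactors, and 5 membrane proteins. They lie on 15 chromosomes.

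Bulk poly(A) RNA of the mouse piriform cortex, the largest cortical area for smell and one from which seizures start easily, was measured in 6 libraries. In 3 libraries the mice had received AAV-DIO-Caspase3, an adeno-associated virus whose caspase 3 is expressed only after Cre recombination and which was designed to kill the cells that carry Cre. In the other 3 libraries they had received AAV-DIO-GFP, which makes green fluorescent protein under the same control. The study looked for features of epilepsy after loss of Gad2 neurons, the inhibitory cells that make GABA. All mice of both groups carried Gad2-Cre, so Cre was present in cells that use the Gad2 promoter, and all had the virus placed stereotactically on a single side. The labels give no age, sex, interval after injection or sampled hemisphere, and they do not say whether each library is a separate animal, so the p-values cover only the spread among these libraries, which could be technical. No uninjected mice were analysed here.

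Lysosomes are acidic compartments in which proteases, glycosidases, lipases and their helper proteins break down material from endocytosis, phagocytosis and autophagy, behind a membrane protected by heavily glycosylated proteins. All brain cells have them, and microglia, the resident phagocytes, are known for high levels of several cathepsins and of progranulin. Many lysosomal genes are known to carry E-box elements bound by the transcription factor TFEB and its relatives.

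Total counts were 20424581 to 24227361 in the Caspase3 libraries and 22101015 to 26268377 in the GFP libraries, and 3 counts correspond to between 0.118 and 0.142 counts per 1000000 (CPM), the count scaled to the size of its library. Gad2 itself had 26.7, 38.5 and 38.0 CPM in the Caspase3 libraries, against 92.4, 118 and 104 CPM in the GFP libraries, and fell (log2 fold change -1.60 ± 0.15 (SE), adjusted p = 0.00371). Caspase3 1 stood farthest from its group, and GFP 3 held 668 CPM of 6 summed markers of striatal projection neurons, against 134.7 to 199.9 CPM in every other library. The number of genes that passed, the median log2 fold change and some single results are therefore also given without these libraries. The lowest count of a lysosomal gene in any library was 42, and the SE of their log2 fold changes ran from 0.094 to 0.29.

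Of the 31 lysosomal genes, 5 rose in the Caspase3 libraries and none fell, by edgeR's quasi-likelihood test with Benjamini-Hochberg adjustment over all 16721 genes and a threshold of 0.05. The 5 were the proteases Ctss, Ctsc and Lgmn, the progranulin gene Grn and the hexosaminidase subunit Hexa. Over all tested genes 1.53% were called higher and 0.114% lower. An unadjusted p under 0.05 was found for 17 of the 31, all with higher values in the Caspase3 libraries, and for 1777 of the 16721. DESeq2 called 10 of the 31 higher and none lower, and of all 16721 genes it called 402 higher and 103 lower. The fitted log2 fold change was above 0 for 30 of the 31, with a median of 0.29 and a range of -0.05 to 1.68, whereas all tested genes had a median of -0.00, with 8321 above 0 and 8400 below. For 17 of the 31 every Caspase3 library lay above every GFP library, as it did for 8.96% of all tested genes, and for none did every Caspase3 library lie below, as it did for 6.29%. Only Ctss, Ctsc and Ctsh reached a 2-fold difference, and Ctsh did not pass the test. In bulk tissue, more cells of a type and more RNA per cell cannot be told apart in any of these values.

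**Figure D1:**
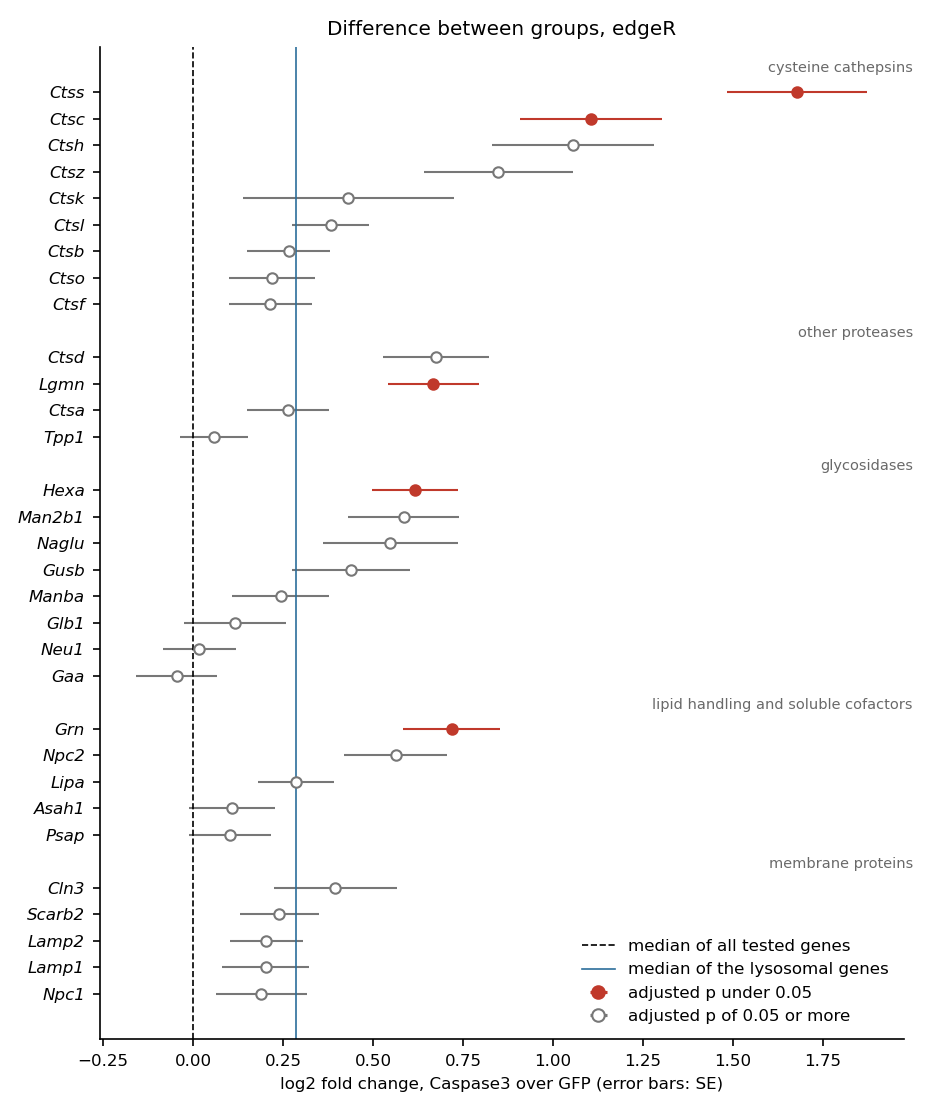
Log2 fold change of each lysosomal gene (Caspase3 over GFP, horizontal axis) with its SE as bars, in 5 role groups down the page. Filled points are the 5 genes with adjusted p under 0.05, and the solid line at 0.29, the median of the 31 genes, lies to the right of the dashed line at -0.00, the median of all tested genes.

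The excess was not spread evenly over the libraries. Caspase3 1 was the highest of the 6 libraries for 28 of the 31 genes. The exceptions were Gaa, highest in Caspase3 2, and Glb1 and Neu1, highest in GFP 2. Against the mean of the GFP libraries, the median of the 31 genes stood at 0.45, 0.22 and 0.28 on the log2 CPM scale in Caspase3 1, 2 and 3, and at 0.03, -0.04 and -0.02 in GFP 1, 2 and 3. All 3 Caspase3 libraries were thus above all 3 GFP libraries, with Caspase3 1 highest, and the median of all tested genes lay between -0.00 and 0.02 in each library. Together the 31 genes took 0.548%, 0.449% and 0.469% of the counts in the Caspase3 libraries, against 0.394%, 0.387% and 0.385% in the GFP libraries. The number that passed the test was 6, 7 and 3 without Caspase3 1, 2 and 3. In those fits 1.66%, 1.32% and 1.27% of all tested genes passed in either direction. The lysosomal number was 3 without GFP 1 and 1, Ctss, without GFP 3, with 1.28% and 0.843% of all tested genes passing. Without GFP 2 it was 0 by edgeR, with 14 of the 31 at an unadjusted p under 0.05, and only 17 of all 17165 tested genes passed. In the same libraries DESeq2 called 7 of the 31 and 319 of all 17165 genes. There limma-voom called 0 of the 31 and 0 of all genes. Without both Caspase3 1 and GFP 3 the lysosomal number by edgeR was 6, with 2% of all tested genes passing. The median log2 fold change of the 31 was 0.18 without Caspase3 1 and 0.19 without both. Without both, the log2 fold change was 1.34 for Ctss, 0.98 for Ctsc, 0.57 for Hexa and 0.47 for Lgmn, each below its value from all 6 libraries. For Grn the lowest value in any alternative was 0.52.

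**Figure D2:**
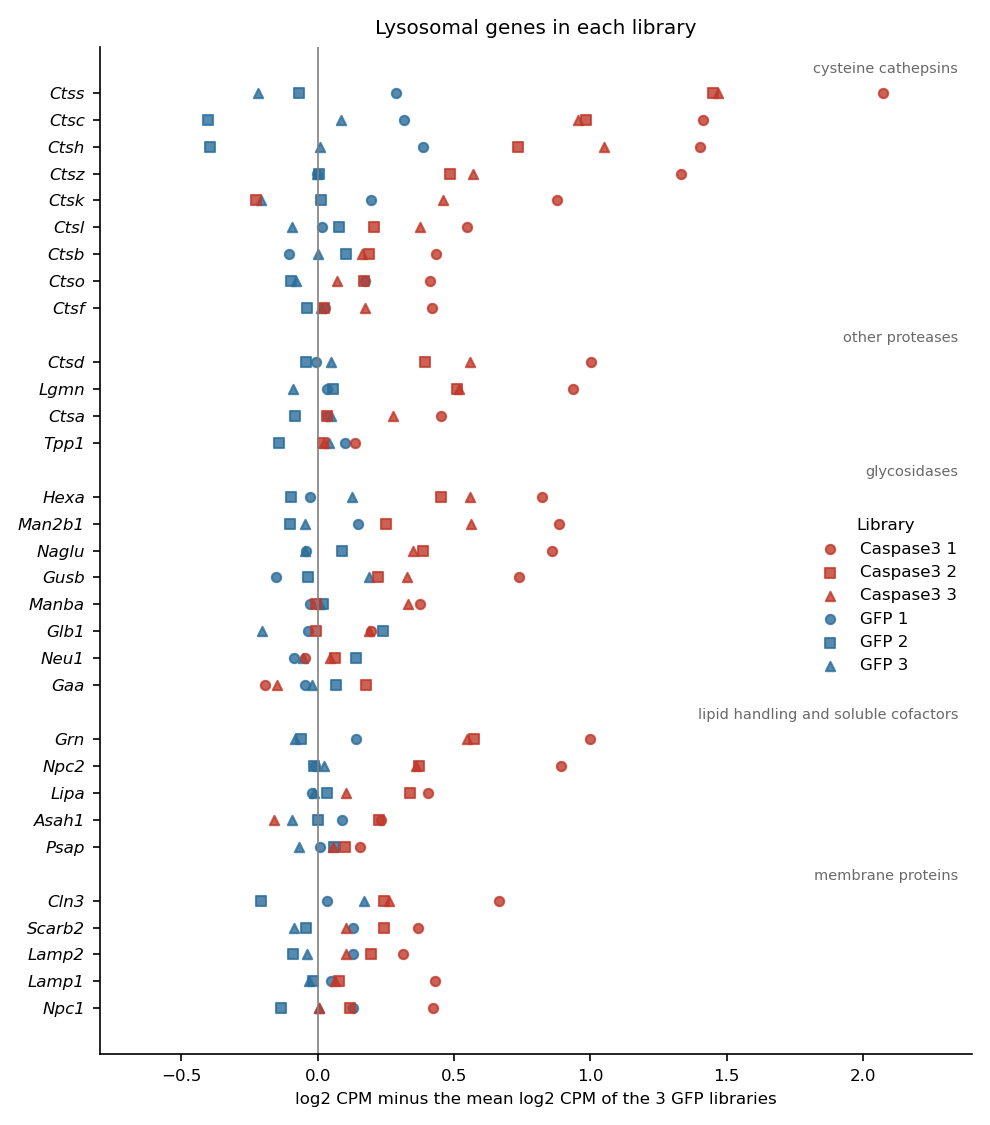
Level of each lysosomal gene in each library, as log2 CPM minus the mean log2 CPM of the 3 GFP libraries (horizontal axis), with Caspase3 libraries in red and GFP libraries in blue and the replicate number as the symbol. Red circles, Caspase3 1, lie farthest right for 28 of the 31 genes. All Caspase3 libraries lie above all GFP libraries for 17, as for 8.96% of all tested genes.

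Among the 9 cysteine cathepsins, Ctss and Ctsc rose, and the median log2 fold change was 0.43. Ctss encodes cathepsin S, an endopeptidase that stays active at neutral pH and trims the invariant chain of MHC class II in antigen-presenting cells. It had 293, 190.3 and 193 CPM in the Caspase3 libraries, against 85.0, 66.4 and 59.9 CPM in the GFP libraries. Every Caspase3 library was more than 2 times the highest GFP library, and Caspase3 1 was the highest of all. Ctss rose 3.20-fold (log2 fold change 1.68 ± 0.19 (SE), adjusted p = 0.00489), and without GFP 2 the adjusted p was 0.0562. The gene lies on GRCm38 chromosome 3, 95526786 to 95556403, plus strand. The 250 bases before its start, from RefSeq's promoter table (GRCm38.p6), are shown because Ctss was the most changed of the 31 genes. They hold a match to GAAANNGAA, a core of interferon response elements, in capitals, which begins 21 bases before the start.
Ctss promoter, chr3:95526536-95526785, plus strand: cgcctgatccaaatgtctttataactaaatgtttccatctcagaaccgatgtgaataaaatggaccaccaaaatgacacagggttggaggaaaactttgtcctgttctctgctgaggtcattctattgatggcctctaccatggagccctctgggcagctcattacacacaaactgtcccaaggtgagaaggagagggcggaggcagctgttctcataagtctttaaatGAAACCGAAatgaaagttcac

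Ctsc encodes cathepsin C, a dipeptidyl peptidase that activates serine proteases of immune cell granules. It had 35.8, 26.6 and 26.0 CPM in the Caspase3 libraries, against 16.7, 10.1 and 14.2 CPM in the GFP libraries, and the groups did not overlap. Ctsc rose 2.15-fold (log2 fold change 1.11 ± 0.20 (SE), adjusted p = 0.0274). The call was lost without Caspase3 2 (adjusted p = 0.0508), GFP 2 (0.0974) or GFP 3 (0.0744). Its level per gene length, in FPKM, which divide the count by gene length as well as by library size, was 5.02 ± 0.898 FPKM in Caspase3 and 2.36 ± 0.564 FPKM in GFP libraries (SD, n = 3 each).

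Ctsh and Ctsz were the nearest cysteine cathepsins outside the threshold. Ctsh, an aminopeptidase, had 24.4, 15.4 and 19.1 CPM in the Caspase3 libraries, against 12.1, 7.01 and 9.27 CPM in the GFP libraries. The groups did not overlap, but both spread widely (log2 fold change 1.06 ± 0.23 (SE), adjusted p = 0.0614). Leaving out Caspase3 2 gave an adjusted p of 0.0490 and leaving out GFP 1 gave 0.0436. Ctsz, a carboxypeptidase, had 51.2, 28.5 and 30.2 CPM in the Caspase3 libraries, against 20.3, 20.4 and 20.3 CPM in the GFP libraries. Its GFP libraries were almost identical, while Caspase3 1 was far above Caspase3 2 and 3 (log2 fold change 0.85 ± 0.21 (SE), adjusted p = 0.109), and without Caspase3 1 the adjusted p was 0.0445.

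The remaining 5 cysteine cathepsins did not pass the test, with log2 fold changes from 0.21 to 0.43. Ctsb, an endopeptidase that also acts as a carboxypeptidase, had 85.8 ± 8.61 FPKM in Caspase3 and 72.1 ± 5.49 FPKM in GFP libraries (SD, n = 3 each), and did not pass (log2 fold change 0.26, adjusted p = 0.463). Nor did Ctsl, an endopeptidase (log2 fold change 0.38, adjusted p = 0.182). For both Ctsb and Ctsl every Caspase3 library was above every GFP library. The groups overlapped for Ctsf (log2 fold change 0.21, adjusted p = 0.569) and Ctso (log2 fold change 0.22, adjusted p = 0.574), whose roles are less well known. Ctsk, known as the collagen-degrading protease of osteoclasts, was the least precise of the 31 and had 4.12, 1.91 and 3.08 CPM in the Caspase3 libraries, against 2.56, 2.26 and 1.93 CPM in the GFP libraries (log2 fold change 0.43 ± 0.29 (SE), adjusted p = 0.669). Its highest and its lowest value were both in Caspase3 libraries.

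Ctsk lies 17.4 kb from Ctss on the same strand of chromosome 3, the closest pair among the 31. The ratio of Ctss to Ctsk CPM was 71.2, 99.6 and 62.7 in the Caspase3 libraries, against 33.2, 29.4 and 31 in the GFP libraries. The ratio did not overlap between groups, with a log2 difference of 1.29 (two-sided exact permutation test, p = 0.1, the smallest that 3 against 3 libraries allow). Ctss had already been found the most changed of the 31 genes in these libraries, and Ctsk was added after values were seen. The separation of the ratio therefore describes the Ctss values again and is no further test of them. The low Ctsk counts limit the precision of this ratio.

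**Figure D3:**
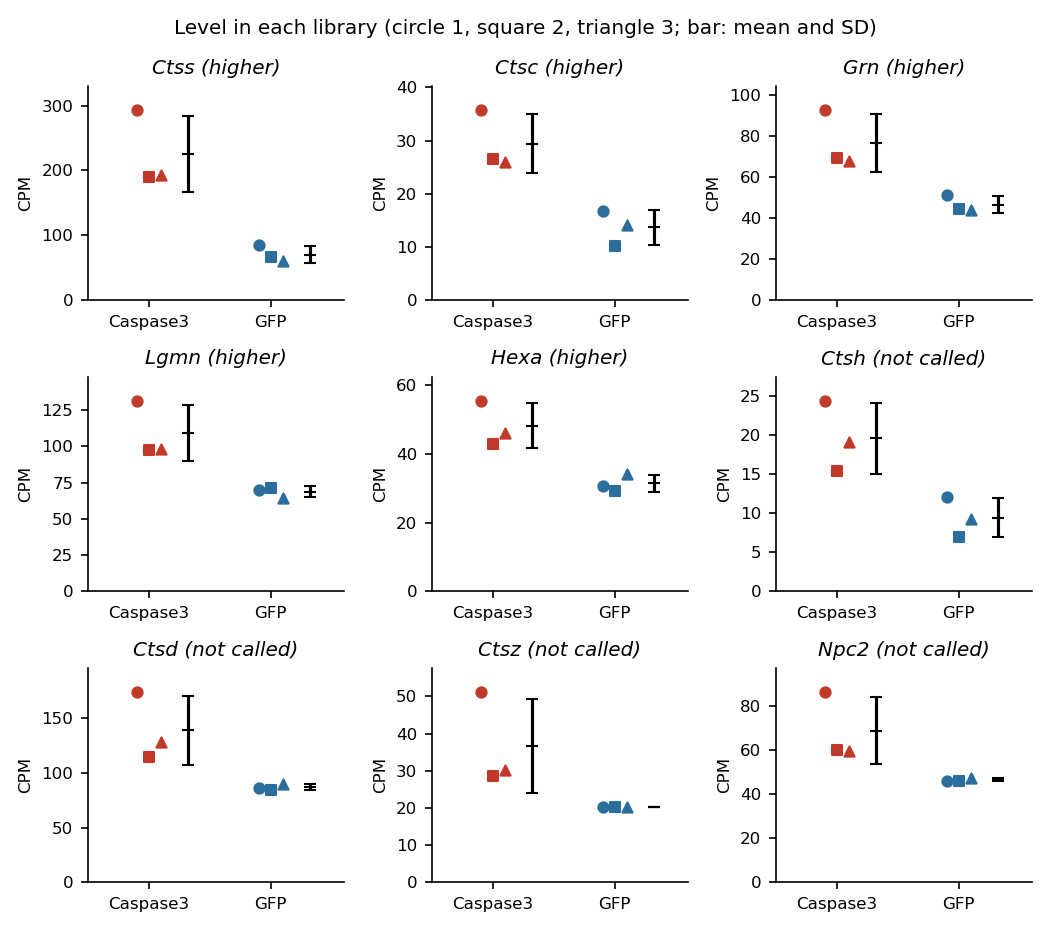
CPM in each library for the 5 genes that passed the test and the 4 nearest to the threshold among those that did not. Caspase3 libraries are red and left, GFP libraries blue and right, and the bars are mean and SD (n = 3 each). The groups do not overlap in any of the 9 panels, which were chosen by the test on these same libraries. They overlap for 14 of the 31 genes.

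Among the 4 proteases of other classes, Lgmn rose, and the median log2 fold change was 0.47. Lgmn encodes legumain, an asparaginyl endopeptidase that also cuts cathepsin precursors into their mature chains. It had 131, 97.7 and 98.3 CPM in the Caspase3 libraries, against 70.2, 71.3 and 64.5 CPM in the GFP libraries. Caspase3 2 and 3 were close to each other and above every GFP library, and Caspase3 1 was higher still. Lgmn rose 1.59-fold (log2 fold change 0.67 ± 0.13 (SE), adjusted p = 0.0360). The adjusted p was 0.0569 without Caspase3 3 and 0.103, 0.144 and 0.116 without GFP 1, 2 and 3. The gene lies on GRCm38 chromosome 12, 102394084 to 102439813, minus strand. RefSeq lists a second start inside it, and the 250 bases before that start are shown because they hold the only E-box core, CACGTG, found in the windows of the 5 genes that rose. The match, in capitals, begins 49 bases before that start.
Lgmn inner promoter, chr12:102439093-102439342, minus strand: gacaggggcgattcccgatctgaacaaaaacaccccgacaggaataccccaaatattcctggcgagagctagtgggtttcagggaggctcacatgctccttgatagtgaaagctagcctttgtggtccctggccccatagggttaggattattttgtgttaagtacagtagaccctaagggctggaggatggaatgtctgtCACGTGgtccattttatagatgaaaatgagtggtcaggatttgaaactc

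Ctsd encodes cathepsin D, the main lysosomal aspartic protease. It had 174, 114 and 128 CPM in the Caspase3 libraries, against 86.5, 84.3 and 89.8 CPM in the GFP libraries. The GFP libraries lay within a narrow band, all below the Caspase3 libraries, and Caspase3 1 stood out above the others (log2 fold change 0.67 ± 0.15 (SE), adjusted p = 0.0683). Its adjusted p was 0.0387 without Caspase3 1 and 0.0361 without Caspase3 2. Per gene length Ctsd had the highest level of these 4 proteases, at 58.4 ± 12.7 FPKM in Caspase3 and 36.9 ± 0.992 FPKM in GFP libraries (SD, n = 3 each). The groups overlapped for Ctsa, the carboxypeptidase that protects Neu1 and Glb1 in a complex (log2 fold change 0.26, adjusted p = 0.454). They also overlapped for Tpp1, a tripeptidyl peptidase lost in a human childhood form of neuronal ceroid lipofuscinosis (log2 fold change 0.06, adjusted p = 0.875).

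Among the 8 glycosidases, Hexa rose, and the median log2 fold change was 0.34. Hexa encodes the alpha subunit of hexosaminidase A, the enzyme that clears GM2 ganglioside and is lost in human Tay-Sachs disease. It had 55.3, 42.8 and 46.1 CPM in the Caspase3 libraries, against 30.7, 29.2 and 34.1 CPM in the GFP libraries. The groups did not overlap, and GFP 3 was the highest of the GFP libraries. Hexa rose 1.53-fold (log2 fold change 0.62 ± 0.12 (SE), adjusted p = 0.0404), the weakest call of the 5. Of the 6 fits that leave out a single library, it held in that without Caspase3 2 (adjusted p = 0.0430), and it held without both Caspase3 1 and GFP 3 (0.0317). Without Caspase3 1 the adjusted p was 0.0551, without Caspase3 3 0.104, and without GFP 1, 2 and 3 0.128, 0.194 and 0.0663.

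Gaa, the acid glucosidase that degrades glycogen, had the highest level per gene length among the glycosidases as a mean over all 6 libraries. In the Caspase3 libraries the mean of Hexa was above that of Gaa, at 23.8 ± 3.04 FPKM (SD, n = 3). In Caspase3 2, however, Gaa was above Hexa, at 25.1 against 21.4 FPKM. Gaa had 21.4 ± 3.24 FPKM in Caspase3 and 22.2 ± 1.02 FPKM in GFP libraries (SD, n = 3 each). In CPM it had 93.2, 120.3 and 96.0 CPM in the Caspase3 libraries, against 103, 111 and 105 CPM in the GFP libraries, and was the only gene of the 31 with a fitted value below 0 (log2 fold change -0.05 ± 0.11 (SE), adjusted p = 0.921). Its groups overlapped, and Caspase3 1, the highest library for most of these genes, was the lowest for Gaa. Of the other 6 glycosidases, 3 had groups that did not overlap, with the Caspase3 libraries above, as did 8.96% of all tested genes. They were the alpha-mannosidase Man2b1 (log2 fold change 0.58, adjusted p = 0.145), the heparan sulfate enzyme Naglu (log2 fold change 0.55, adjusted p = 0.307) and the beta-glucuronidase Gusb (log2 fold change 0.44, adjusted p = 0.362). Without Caspase3 2 the adjusted p of Man2b1 was 0.0429. The groups overlapped for the beta-mannosidase Manba (log2 fold change 0.24, adjusted p = 0.582), the beta-galactosidase Glb1 (log2 fold change 0.12, adjusted p = 0.824) and the sialidase Neu1 (log2 fold change 0.02, adjusted p = 0.971).

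Among the 5 genes of lipid handling and soluble cofactors, Grn rose, and the median log2 fold change was 0.29. Grn encodes progranulin, a secreted glycoprotein that lysosomes cut into granulins and whose loss in humans is known to cause frontotemporal dementia. It had 92.7, 69.1 and 67.8 CPM in the Caspase3 libraries, against 51.2, 44.5 and 43.8 CPM in the GFP libraries. Every Caspase3 library lay above every GFP library, and Caspase3 1 was again the highest. Grn rose 1.64-fold (log2 fold change 0.72 ± 0.14 (SE), adjusted p = 0.0346). The adjusted p was 0.0615, 0.174 and 0.111 without GFP 1, 2 and 3.

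Psap encodes prosaposin, the precursor of the saposins that help hydrolases reach sphingolipids, and a partner of progranulin. It had 1782, 1715 and 1667 CPM in the Caspase3 libraries, against 1611, 1672 and 1526 CPM in the GFP libraries (log2 fold change 0.10 ± 0.11 (SE), adjusted p = 0.806), and the groups overlapped. Npc2, the soluble protein that hands cholesterol to Npc1, had 86.3, 60.1 and 59.6 CPM in the Caspase3 libraries, against 46.1, 46.0 and 47.3 CPM in the GFP libraries. The GFP libraries were within a narrow band below all Caspase3 libraries, and Caspase3 1 was well above the other two (log2 fold change 0.56 ± 0.14 (SE), adjusted p = 0.128). The groups did not overlap for Lipa, the acid lipase (log2 fold change 0.29, adjusted p = 0.352), and overlapped for Asah1, the acid ceramidase (log2 fold change 0.11, adjusted p = 0.806).

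None of the 5 membrane proteins passed the test, by edgeR or by DESeq2, and 1 of them, Cln3, had an unadjusted p under 0.05. Their median log2 fold change was 0.20. Lamp1, a main glycoprotein of the lysosomal membrane, had 453, 355 and 351 CPM in the Caspase3 libraries, against 347, 332 and 328 CPM in the GFP libraries. The groups came close without overlapping, since Caspase3 3 was only just above GFP 1, and Caspase3 1 was the library apart (log2 fold change 0.20 ± 0.12 (SE), adjusted p = 0.614). Cln3, the protein lost in juvenile neuronal ceroid lipofuscinosis, had 11.8, 8.78 and 8.87 CPM in the Caspase3 libraries, against 7.60, 6.42 and 8.35 CPM in the GFP libraries (log2 fold change 0.39 ± 0.17 (SE), adjusted p = 0.454), again without overlap. The groups overlapped for Lamp2, which also serves chaperone-mediated autophagy (log2 fold change 0.20, adjusted p = 0.538). The same held for Scarb2, the receptor that carries glucocerebrosidase to lysosomes (log2 fold change 0.24, adjusted p = 0.490), and for Npc1, the cholesterol exporter (log2 fold change 0.19, adjusted p = 0.658).

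Levels per gene length spanned 406-fold, from Psap to Cln3. Psap averaged 621 ± 18.2 FPKM in Caspase3 and 584 ± 29.7 FPKM in GFP libraries (SD, n = 3 each), Lamp1 143 ± 20.3 FPKM in Caspase3 and 125 ± 3.81 FPKM in GFP libraries (SD, n = 3 each) and Ctss 164 ± 41.5 FPKM in Caspase3 and 51.8 ± 9.59 FPKM in GFP libraries (SD, n = 3 each). In the Caspase3 libraries Ctss was the second most abundant of the 31 by this measure, and in the GFP libraries it stood behind Psap, Lamp1 and Ctsb. Ctss made up 11.1% ± 1.66 of the summed FPKM of the 31 genes in Caspase3 and 4.40% ± 0.708 in GFP libraries (SD, n = 3 each), while Psap made up 42.6% ± 3.03 in Caspase3 and 49.6% ± 1.13 in GFP libraries. The summed FPKM was 1629, 1395 and 1366.5 in the Caspase3 libraries, against 1200.2, 1203 and 1127 in the GFP libraries.

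**Figure D4:**
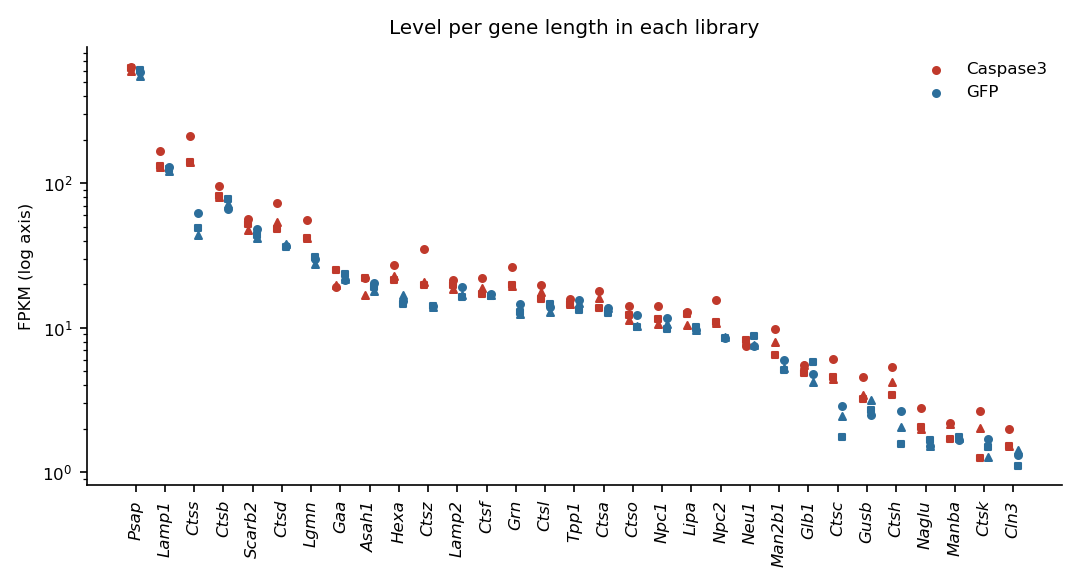
FPKM of each lysosomal gene in each library on a log axis, ordered from the highest mean, with Caspase3 libraries in red on the left of each gene and GFP libraries in blue on the right. Levels span 406-fold from Psap to Cln3, and Ctss shows the widest separation, with means of 164.3 FPKM in Caspase3 and 51.8 FPKM in GFP libraries.

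The summed CPM of every role group was higher in the Caspase3 libraries on average. The 9 cysteine cathepsins summed to 1247, 958 and 971 CPM in the Caspase3 libraries, against 729, 753 and 711 CPM in the GFP libraries, a ratio of means of 1.45. The ratio was 1.37 for the other proteases, 1.18 for the glycosidases, 1.16 for the membrane proteins and 1.10 for the lipid group, in which Psap holds most of the counts. The 5 genes that rose summed to 609, 426 and 431 CPM in the Caspase3 libraries, against 254, 222 and 217 CPM in the GFP libraries, a ratio of 2.12. The 26 others had a ratio of 1.15. The 5 were picked by the test on these same libraries, so their higher ratio follows from that choice. The 26 had a median log2 fold change of 0.25, against -0.00 over all tested genes. For 12 of them every Caspase3 library lay above every GFP library, as it did for 8.96% of all tested genes.

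Markers of microglia moved with these genes. For comparison with the counts that follow, 1.53% of all tested genes were called higher and 0.114% lower. Of 17 microglial markers 8 rose and none fell, all 17 were detected, and their summed level was 830.4, 619.9 and 598 CPM in the Caspase3 libraries, against 462, 384 and 391 CPM in the GFP libraries. Caspase3 1 was highest for the microglial sum as for the lysosomal genes. The 9 monocyte and macrophage markers summed to 136, 65.6 and 95.4 CPM in the Caspase3 libraries, against 59.7, 34.4 and 42.9 CPM in the GFP libraries, with 1 of 8 tested (Lyz2) higher. The 9 T and NK cell markers summed to 8.91, 6.14 and 3.98 CPM in the Caspase3 libraries, against 1.58, 0.673 and 4.52 CPM in the GFP libraries, with 3 of 4 tested higher. At T and NK sums this low, the filter on low counts favours genes that are high in a single group, so 3 of 4 is no separate support. The macrophage sums did not overlap between groups, whereas for T and NK cells GFP 3 was above Caspase3 3. The 10 interferon-stimulated genes all rose and summed to 682, 460.3 and 241 CPM in the Caspase3 libraries, against 46.8, 33.7 and 29.1 CPM in the GFP libraries. Their sum was far higher in every Caspase3 library, and highest in Caspase3 1. The 8 oligodendrocyte lineage markers summed to 12467, 8727 and 8877 CPM in the Caspase3 libraries, against 8625, 7593 and 8910.3 CPM in the GFP libraries, with none called by edgeR and 1 at an unadjusted p under 0.05. The 8 astrocyte and 6 endothelial markers had summed ratios of 0.97 each, with Gfap the only one that rose. The 6 neuronal markers had a ratio of 0.84, with Gad2 the only one called. The part of these cell types in the lysosomal differences was not tested.

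The genes were also set against the microglial markers, on scales chosen after the values were seen. Per 100 CPM of the summed markers, which were themselves 1.65 times as high in Caspase3 as in GFP libraries, Ctss had 35.3, 30.7 and 32.3 in the Caspase3 libraries, against 18.4, 17.3 and 15.3 in the GFP libraries, a separation of the groups. Ctsc had 4.31, 4.28 and 4.35 in the Caspase3 libraries, against 3.62, 2.64 and 3.64 in the GFP libraries. For Ctss and Ctsc the Caspase3 libraries remained above the GFP libraries (exact permutation p = 0.1, the smallest possible here). Grn had 11.2, 11.2 and 11.3 in the Caspase3 libraries, against 11.1, 11.6 and 11.2 in the GFP libraries, values that differed by less than their spread. Lgmn had 15.8, 15.8 and 16.4 in the Caspase3 libraries, against 15.2, 18.6 and 16.5 in the GFP libraries. Hexa had 6.67, 6.90 and 7.71 in the Caspase3 libraries, against 6.64, 7.61 and 8.72 in the GFP libraries. The groups overlapped for both Lgmn and Hexa. Of all 31 genes, 2 were above, 11 overlapped and 18 were below in the Caspase3 libraries on this scale, whereas 1.78% of all tested genes were above and 74.4% below. With this divisor the median log2 difference of all tested genes was -0.72, so the 18 genes below are not a result about the lysosomal genes. Per CPM of P2ry12, a microglial receptor gene whose exons overlap Med12l on the opposite strand and that did not pass the test itself (log2 fold change 0.17 ± 0.09 (SE), adjusted p = 0.588), 11 of the 31 were above, 20 overlapped and none was below, whereas 4.07% of all tested genes were above and 20.3% below. On the P2ry12 scale every Caspase3 library was above every GFP library also for Grn, Lgmn and Hexa, with log2 differences of 0.54, 0.49 and 0.45. The median of all tested genes on that scale was -0.17. Their overlap on the first scale thus depends on the markers chosen. P2ry12 changed less than most of the 17 markers, whose log2 fold changes ran from 0.13 to 1.47 with a median of 0.66. The P2ry12 scale therefore stays close to plain CPM.

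**Figure D5:**
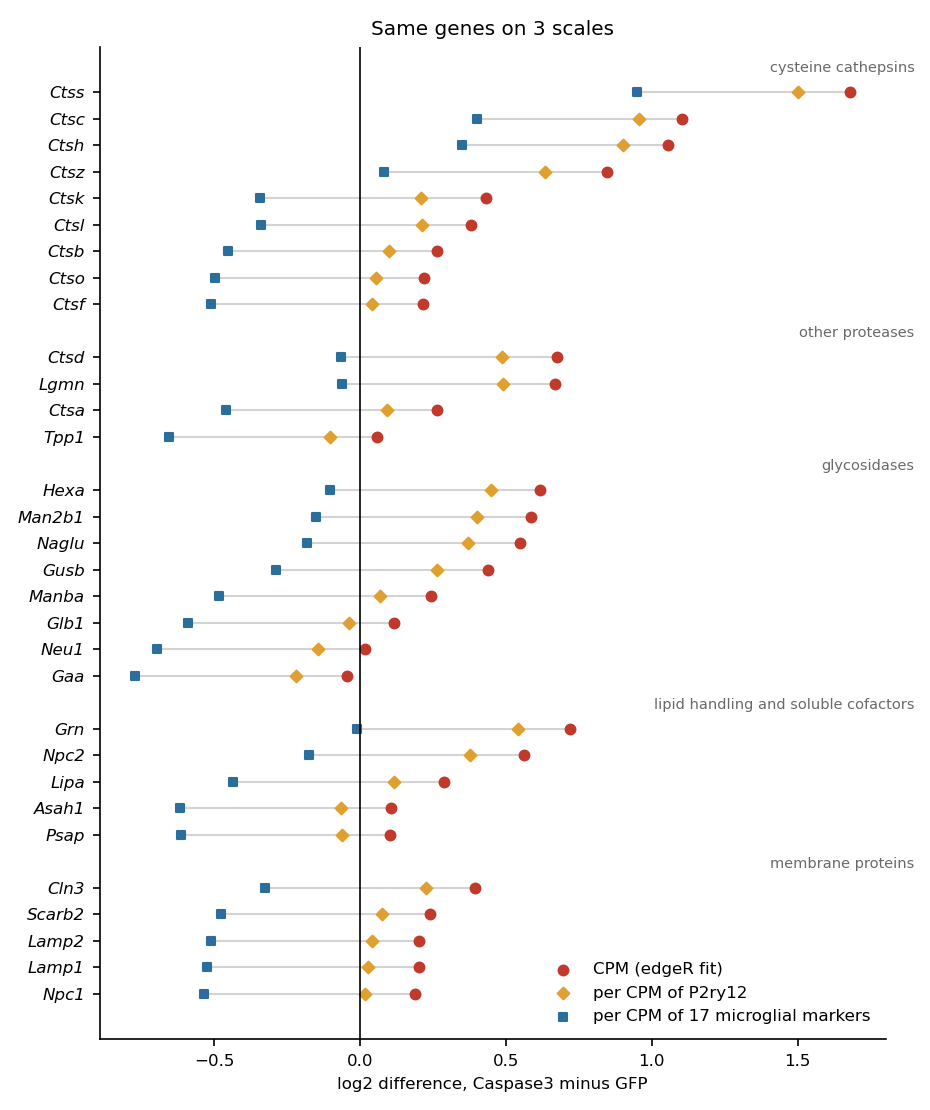
Log2 difference of each lysosomal gene between Caspase3 and GFP libraries on 3 scales: CPM from the edgeR fit (red circles), per CPM of P2ry12 (yellow diamonds) and per summed CPM of 17 microglial markers (blue squares). On the summed-marker scale Ctss (0.95) and Ctsc (0.40) stay to the right of 0 with separate groups, Grn lies at -0.01, and 18 genes have all Caspase3 libraries below all GFP libraries, as do 74.4% of all tested genes on that scale.

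The windows from 250 bases before to 50 bases after each RefSeq start (GRCm38.p6) were searched on both strands for E-box and interferon-type letters. Windows were found for 27 of the 31 genes, 31 windows in all. CACGTG was present for 10 of the 27 genes (37.0%), against 11.2% of the tested genes with a window and 8.09% of all genes in the table. The 10 were Cln3, Ctsa, Ctsd, Ctsf, Ctsl, Gaa, Glb1, Lamp1, Lgmn and Naglu, with 4 matches in Lamp1. TCACGTGA, the longer form that contains CACGTG, was present for Cln3, Ctsa and Ctsd (11.1%), against 1.98% of tested genes and 1.12% of all genes. GAAANNGAA was present for Ctss, Cln3, Ctso and Lamp1 (14.8%), against 8.84% of tested genes and 9.76% of all genes. A match is a run of letters and not a measured binding site.

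Genes of the same organelle outside the 31 were examined in lists by function, and 4 of those lists are described. Over all tested genes 1.53% were called higher and 0.114% lower. Of 29 other lysosomal membrane proteins, Laptm5 and Cd68 rose, both known from phagocytes, and the median log2 fold change was 0.09. Laptm5 had 77.4, 49.9 and 50.1 CPM in the Caspase3 libraries, against 31.7, 28.7 and 26.8 CPM in the GFP libraries (log2 fold change 1.02 ± 0.17 (SE), adjusted p = 0.0213), and Cd68 had 12.04, 7.41 and 8.44 CPM in the Caspase3 libraries, against 4.57, 3.92 and 3.65 CPM in the GFP libraries (log2 fold change 1.20 ± 0.21 (SE), adjusted p = 0.0245). In Laptm5 and Cd68 every Caspase3 library was above every GFP library and Caspase3 1 was highest.

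Of 4 cystatins tested, the family of cathepsin inhibitors, Cst7 rose. It passed the filter on low counts through its Caspase3 libraries alone, so it could be called only as higher. Cst7 encodes cystatin F, which is known to inhibit cathepsin C, and its level was close to the floor in the GFP libraries, with 2.94, 1.91 and 1.81 CPM in the Caspase3 libraries, against 0.326, 0.158 and 0.0439 CPM in the GFP libraries (log2 fold change 3.63 ± 0.49 (SE), adjusted p = 0.00765). The acidification and sorting lists had median log2 fold changes near 0, while single genes spread around it. The V-ATPase subunits ran from -0.24 to 0.71, and the sorting receptors and regulators from -0.37 to 0.42. None of 19 subunits of the V-ATPase, the proton pump of the lysosome, was called by edgeR or DESeq2, with 2 at an unadjusted p under 0.05 and a median of -0.04. The subunit with the highest mean CPM, Atp6v1a, had 539, 789 and 681 CPM in the Caspase3 libraries, against 685, 742 and 610.2 CPM in the GFP libraries (log2 fold change -0.02 ± 0.15 (SE), adjusted p = 0.978). None of 18 sorting receptors and regulators was called by edgeR or DESeq2, with 3 at an unadjusted p under 0.05 and a median of -0.01, and the gene with the highest mean CPM, Sort1, had 631, 641 and 608 CPM in the Caspase3 libraries, against 624, 702 and 632 CPM in the GFP libraries (log2 fold change -0.06, adjusted p = 0.883). None of Laptm5, Cd68 and Cst7 passed without GFP 2, and without GFP 3 only Cst7 did. Without GFP 1 the list of other membrane proteins had 1 gene higher.

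By the GENCODE M21 annotation, 9 of the 31 genes share exon sequence with another gene that was tested, and the sources used here do not say whether reads were counted by strand. Among the genes that rose, Grn overlaps Fam171a2 on the opposite strand, which had means of 29.1 CPM in Caspase3 and 29.9 CPM in GFP libraries (log2 fold change -0.04, adjusted p = 0.933). Hexa overlaps Tmem202 on the opposite strand, which had means of 1.05 CPM in Caspase3 and 0.838 CPM in GFP libraries (log2 fold change 0.32, adjusted p = 0.759). Neither neighbour passed the test, and reads of such pairs cannot be told apart if strand was not used. The other 7 are Cln3, Ctsa, Ctsb, Ctsz, Glb1, Lamp1 and Npc1.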

How the data were processed

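Poly(A) RNA of mouse piriform cortex was measured in 6 libraries, 3 labelled AAV-DIO-Caspase3 and 3 AAV-DIO-GFP, with groups and replicate numbers from the sample titles. TRIzol was used for RNA isolation and the library kit marks the second cDNA strand, per the labels' protocols. The submitters' processing notes name HISAT2, featureCounts, DESeq2 and the builds mm10 and GRCm38 without roles or versions. Whether reads were counted by strand was not given in the sources used. The authors' count table holds whole-number read counts per gene with coordinates and lengths, per the file headers. The authors' deposited FPKM table holds FPKM per gene. FPKM equalled count over length and a library constant, 95.6% to 105.6% of the total count, checked on genes with at least 50 counts. No per-sample column was without a sample.

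The main test was edgeR's quasi-likelihood test (version 4.0.16, R 4.3.3) of group over all 6 libraries, run on the counts as deposited after filterByExpr and TMM scaling, with Benjamini-Hochberg adjustment and a threshold of 0.05. CPM use the library total multiplied by its TMM factor. The SE was taken as the size of the log2 fold change over the square root of F. FPKM were used for levels between genes and in 2 alternatives. The procedure was tested on simulated data. Libraries of 1 group differed beyond counting noise (mean chi-square per gene 12.6 to 32.8). Itgam has 2 rows in the count table, and the row with more counts was used.

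The 31 genes, the other lists and the tests were chosen with earlier results of these data known. Values in every library are given for Gad2, each of the 31 that passed, the 4 nearest the threshold, and in each role group the gene with the highest mean FPKM and that with the largest log2 fold change. In each other list up to 4 genes that passed are named, or else the gene with the highest mean CPM. A result that this rule would name is not reported here. Ctsb and Ctsk values, the microglial ratios, P2ry12 and the genes overlapping an exon were added after values were seen. Alternatives were DESeq2 1.42.0 on the 16721 filtered genes, DESeq2 size factors, upper-quartile factors, library totals, limma-voom (limma 3.58.1), limma on log2(FPKM + 0.1) and log2(FPKM + 1), no filter, a mean of at least 1 CPM, adjusted p under 0.10, a block for the sample number, and leaving out each library. Promoter sequences are from RefSeq. Figures were drawn with Matplotlib 3.10.9.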

Additional observations from a re-analysis of the deposited data

How the results depend on the processing

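The 5 genes that rose did so in the reported fit and under DESeq2 size factors, upper-quartile factors, library totals, limma-voom and a mean of at least 1 CPM. The number of lysosomal genes higher was 10 with DESeq2 and 10 with no filter (adding Ctsd, Ctsh, Ctsz, Man2b1 and Npc2), and 1, Ctss, with limma on log2(FPKM + 0.1) and on log2(FPKM + 1). It ranged from 0 to 7 with a library left out, and none was lower in any of the 18 alternatives. Of those 18, Ctss passed in 17, Ctsc and Grn in 13, Lgmn in 12 and Hexa in 11, and 21 of the 31 genes passed in none. Gaa, Neu1, Tpp1, Glb1 and Asah1 changed sign in at least 1 alternative without passing. The median log2 fold change of the 31 was 0.18 to 0.36 with a library left out, and 0.19 without both Caspase3 1 and GFP 3, an alternative added after seeing the data. Over all tested genes, 402 were higher and 103 lower with DESeq2, 663 and 250 with no filter, and 160 and 10 with log2(FPKM + 1), against 255 and 19 as reported. At adjusted p under 0.10, 40 were lower, and without both libraries 77. Leaving out a library gave 15 to 252 higher and 2 to 33 lower. Among the other lysosomal membrane proteins 5 were higher with DESeq2, against 2 as reported, and with no filter 5, with 1 V-ATPase subunit. In the membrane protein list 1 gene was lower with DESeq2, with no filter and with the block, against 0 as reported. The causes were not tested. Whether the replicate numbers pair the libraries is not known. Deviations of same-numbered libraries correlated at 0.065, 0.178 and 0.027, and those of differently numbered libraries at -0.142 to 0.079. Values this small, from deviations centred within groups of 3, do not show that pairing was absent. With the replicate number as a block, 8 lysosomal genes were higher (adding Ctsd, Ctsh and Man2b1), and of all tested genes 378 were higher and 43 lower. With 3 libraries a group the median SE of the 31 log2 fold changes was 0.13, against a median value of 0.25 in the 26 that did not pass, and a missed threshold does not show that those genes were unchanged.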
